A study of Haemaphysalis flava with 2 samples.

Results

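Monocarboxylate transporters are membrane proteins that carry lactate, pyruvate, ketone bodies and related small acids across cell membranes. In the midgut transcriptome of the hard tick Haemaphysalis flava they were taken as every unigene (assembled transcript or transcript fragment) whose best protein description contained the word monocarboxylate or monocarboxylic. The rule found 98 of 65535 unigenes, 96 by their Nr description and 2 by their UniProt description where Nr gave none. The rule reads these descriptions only and uses no expression value.

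Midguts, the organ in which ticks store and digest blood, came from fully engorged (FE) and partially engorged (PE) H. flava, and polyadenylated RNA was sequenced as 1 library per state. The labels count 60 dissected midguts, 30 of each state. The sources used here do not give how many of them went into a library, nor the age, sex or host of the ticks. With 1 library per state no difference has a replicate check, no test between the states was made, and variation between ticks cannot be judged.

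In vertebrates the classical members of the family move a monocarboxylate together with a proton, in whichever direction the gradients drive, and need a small membrane glycoprotein as a partner to reach the cell surface. Other members of the same family carry aromatic amino acids or thyroid hormones, and several have no settled substrate. A separate family, the sodium-coupled monocarboxylate transporters, uses the sodium gradient to take up lactate, pyruvate and short-chain fatty acids in vertebrate gut and kidney. Substrates in ticks are not given by the descriptions used here.

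More transcripts of this family were lower than higher in FE midgut. Of the 84 members that reached 1 RPKM (reads divided by unigene length and library size) in a library, 39 were lower in FE, 12 were higher and 33 were neither. A member was called when the log2 of (FE RPKM + 1)/(PE RPKM + 1) was at least 1 or at most -1 and the 95% exact (Clopper-Pearson) counting interval of the ratio excluded 1. Among the members 46.4% were thus lower and 14.3% higher, against 11.1% lower and 25.7% higher (36.8% called in either direction) of all 44982 unigenes at that level. The median log2 ratio of these members was -0.82 and that of all unigenes 0.36, a difference of -1.18. A TMM factor lowered all FE RPKM values by 0.39 log2 units before the 1 RPKM was added. With it 44 members were lower and 9 higher, beside 15.6% lower and 18.0% higher of all unigenes. The members' median then stood 1.06 below that of all unigenes. Another 14 members stayed under 1 RPKM in both libraries and were not called.

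**Figure D1:**
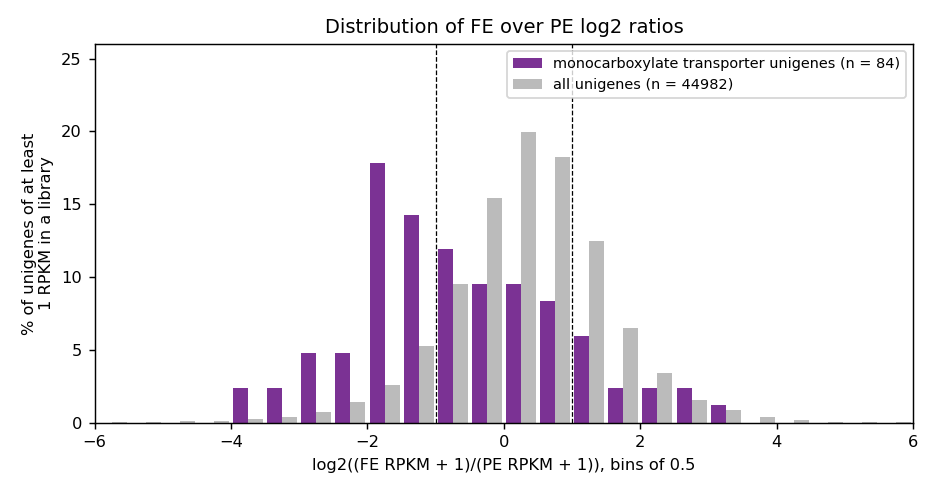
Share of unigenes (%, y axis) in bins of the log2 FE over PE ratio (x axis) for the 84 members (purple) and all 44982 unigenes (grey, members included) of at least 1 RPKM in a library. Dashed lines mark the size needed for a call. The members' median lies at -0.82, left of the median of all unigenes at 0.36.

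Summed over the 98 members, the level was 670 RPKM in FE and 1792 RPKM in PE. That is 0.0809% of the summed RPKM of all unigenes in FE and 0.205% in PE. The 37214 FE reads and 98133 PE reads of the family give a 2.17-fold lower level per read in FE (95% counting interval 2.14 to 2.19), and the ratio of summed RPKM was 2.67-fold, because short members weigh more in RPKM. Fold values given as lower in FE are the PE value over the FE value. In bulk RNA, fewer cells that express a gene and less RNA per cell cannot be told apart.

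Lists of genes described by names tied to other tissues had reads in both libraries. The descriptions alone do not show in which tissue these transcripts were made. Muscle genes (myosin heavy chain, troponin, tropomyosin, paramyosin) summed to 3342 RPKM in FE and 3737 RPKM in PE. Of 40 muscle unigenes 7 were higher in FE and 0 lower. Nerve terminal genes summed to 146 and 111 RPKM in FE and PE, with 5 of 10 higher in FE and 0 lower. Unigenes named after salivary proteins of other ticks summed to 6235 RPKM in FE and 20162 RPKM in PE, with 32 of 83 higher in FE and 25 lower. All members of the muscle and nerve lists had reads in both libraries, and 5 of the 94 salivary-named unigenes had 0 reads in PE. Digestive enzymes of the midgut (cathepsins, legumain, longipain and proteins named after the midgut) summed to 2141 RPKM in FE and 3191 RPKM in PE. Of 21 such unigenes 6 were higher in FE (28.6%) and 8 lower (38.1%). Of all unigenes at 1 RPKM or more, 25.7% were higher and 11.1% lower. Whether other tissues were in the libraries, and their part in the transporter differences, was not tested.

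The most abundant members carried much of the difference. Contig17865 had 60.7 RPKM in FE (1994 reads) and 362 RPKM in PE (14475 reads), 5.97-fold lower in FE (95% counting interval 5.69 to 6.26). Contig10833 had 40.9 RPKM in FE (1054 reads) and 258 RPKM in PE (8097 reads), 6.32-fold lower in FE (5.92 to 6.74). Both are short, 793 and 622 nucleotides, and match different partial Ixodes scapularis proteins, at 45.5% and 54.6% identity. They made up 15.2% of the family's RPKM in FE and 34.6% in PE, and without them the sum was still 2.06-fold lower in FE.

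Contig2238, the next in mean level, is the best described of the abundant members. It covers 98.9% of a 640-residue I. scapularis protein at 82.2% identity. UniProt names its hit putative monocarboxylate transporter 1, in mammals the widespread proton-linked lactate carrier. Contig2238 had 37.3 RPKM in FE (6117 reads) and 83.8 RPKM in PE (16707 reads), 2.25-fold lower in FE (2.18 to 2.31). First_Contig2402, whose hit has the same UniProt name, had 1.55 RPKM in FE and 2.26 RPKM in PE and was neither.

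Of the 12 members with the highest mean level, 10 were lower in FE, 1 was higher and 1 was neither. Contig50571, Contig23169 and Contig18944 had 22.9, 25.4 and 29.4 RPKM in FE and 96.0, 91.4 and 79.7 RPKM in PE. Contig14511, which covers 90.7% of a 497-residue protein, had 15.2 RPKM in FE and 50.2 RPKM in PE, 3.30-fold lower in FE (3.09 to 3.52). Contig18041 had 19.7 RPKM in FE and 41.3 RPKM in PE, and Contig24511 had 13.3 and 37.1 RPKM in FE and PE. Contig6330 was the abundant member that was called neither, with 48.0 RPKM in FE (3702 reads) and 28.9 RPKM in PE (2709 reads).

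**Figure D2:**
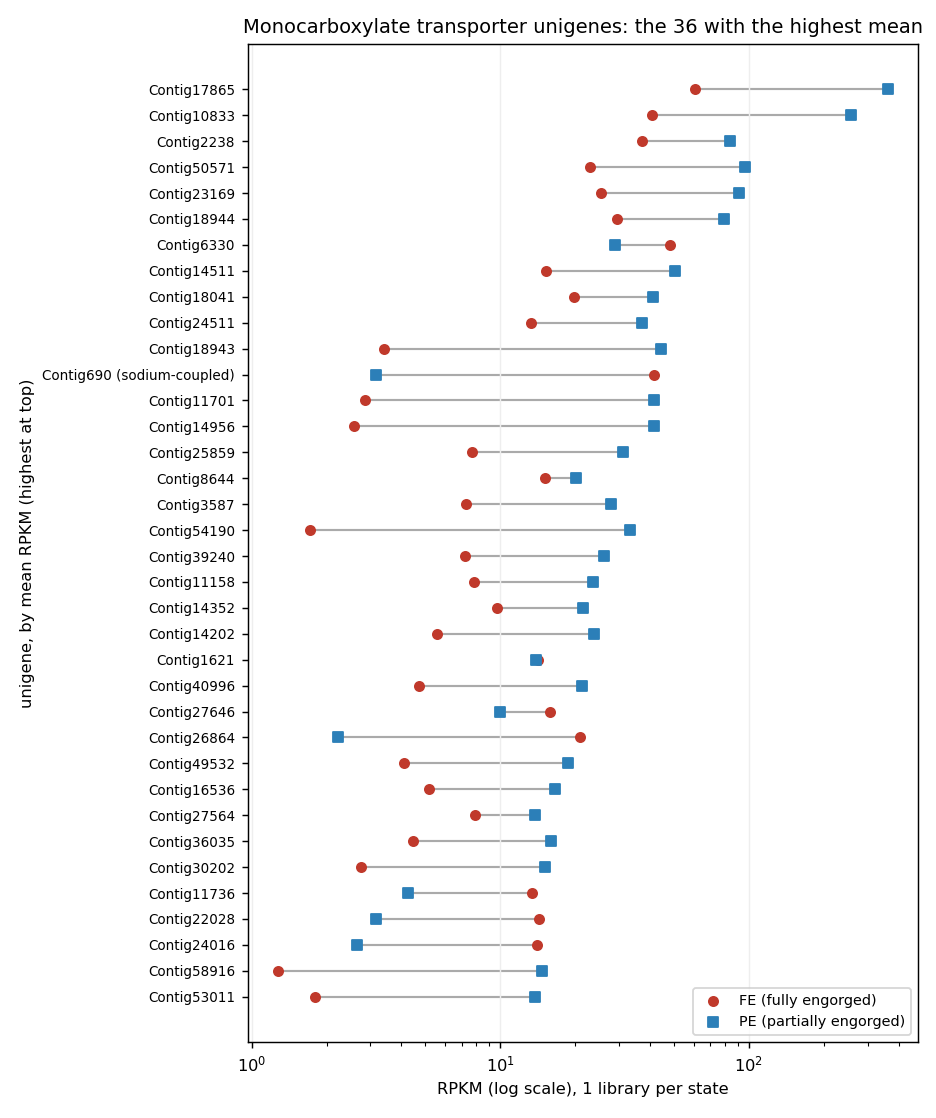
RPKM on a log axis in the FE library (red circles) and the PE library (blue squares) for the 36 members with the highest mean level, highest at the top. Each line joins the 2 libraries' values of 1 unigene. The FE value lies left of the PE value for most of them, with Contig690 at 41.5 RPKM in FE and 3.16 RPKM in PE as the widest gap the other way.

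In classes of the mean of both libraries, the share of members lower in FE was larger at higher means. That mean uses the same 2 values as the ratio, so class and call are not independent. The pseudocount of 1 RPKM also shrinks ratios most at low levels. Where the mean of both libraries reached 20 RPKM, 12 of 14 members were lower in FE and 1 was higher, where 16.0% of 6400 unigenes of that level were lower and 29.5% higher. Among those of 5 to 20 RPKM 16 of 30 were lower and 4 higher, against 10.3% and 30.1% of 13025 unigenes. Under 5 RPKM 11 of 40 were lower and 7 higher, against 10.3% and 22.5% of 25557 unigenes, and the members' median log2 ratio was -0.17 there, compared with -1.73 at 20 RPKM and above. The top class holds few members, and between the other classes the shares lower in FE were 53.3% (5 to 20 RPKM) and 27.5% (under 5 RPKM). The 12 members higher in FE summed to 127 RPKM in FE and 17.9 RPKM in PE, and the 39 lower ones to 359 RPKM in FE and 1596 RPKM in PE.

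**Figure D3:**
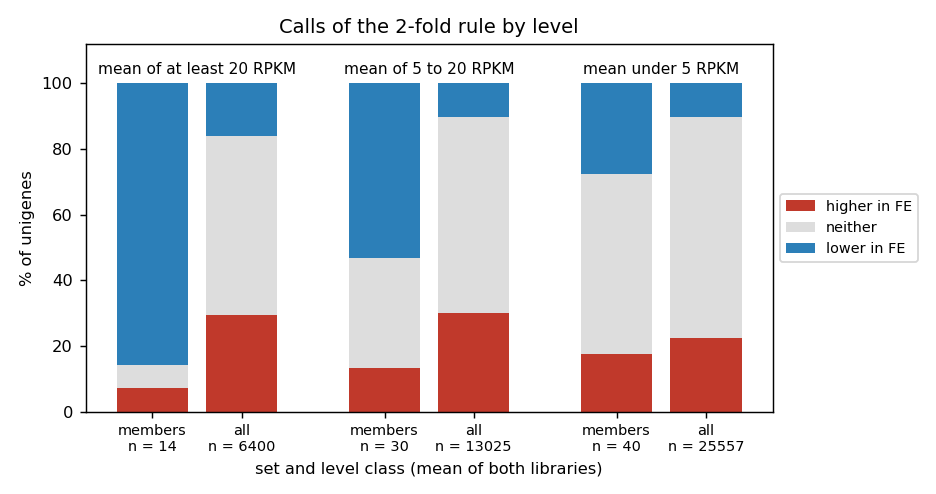
Percent of unigenes higher in FE (red), neither (grey) and lower in FE (blue) in 3 classes of mean RPKM, for the members and for all unigenes (members included) of the same class. In the highest class 85.7% of 14 members and 16.0% of 6400 unigenes were lower in FE.

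The 3 lowest log2 ratios belonged to members with the same best-hit protein. Contig54190 had 1.72 RPKM in FE (43 reads) and 33.1 RPKM in PE (1007 reads), 19.3-fold lower in FE (14.2 to 26.8). Contig14956 had 2.57 RPKM in FE and 41.5 RPKM in PE, 16.1-fold lower (11.4 to 23.5), and Contig11701 had 2.86 RPKM in FE and 41.6 RPKM in PE, 14.5-fold lower (11.99 to 17.7). All 3 match the same I. scapularis protein of 457 residues, at residues 9 to 196, 164 to 216 and 262 to 450. Their levels were alike within each library. The alignments of Contig54190 and Contig14956 share residues 164 to 196, most of the stretch of Contig14956, and that of Contig11701 overlaps neither. Pieces of 1 transcript and separate genes cannot be told apart from these values.

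In all, 7 members match this 457-residue protein, and they went both ways. Contig58916 (1.28 RPKM in FE, 14.6 RPKM in PE) and Contig59474 (1.02 and 10.7 RPKM in FE and PE) were lower as well, while their alignments overlap that of Contig11701. First_Contig2265 had 2.94 RPKM in FE (113 reads) and 0.641 RPKM in PE (30 reads), 4.58-fold higher in FE (3.04 to 7.10). Contig29096 had 2.35 RPKM in FE (138 reads) and 0.658 RPKM in PE (47 reads), 3.57-fold higher in FE (2.55 to 5.09). These last unigenes lie over the same residues as the ones that were lower, 8 to 197 and 268 to 453, at 32.5% and 47.1% identity, so they are not further pieces lying end to end with them. Both calls are lost with a TMM factor, at log2 ratios of 0.98 and 0.75.

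Another I. scapularis protein, of 399 residues, was the best hit of 8 members, the most for any protein. Of these 6 were lower in FE, Contig6330 was neither and Contig76573 stayed under 1 RPKM. Together they had 145 RPKM in FE and 387 RPKM in PE. Contig18943 differed most, with 3.41 RPKM in FE (58 reads) and 44.4 RPKM in PE (917 reads), 13.0-fold lower in FE (9.96 to 17.3). Contig18944 covers nearly the same residues (76 to 160, where Contig18943 covers 103 to 161) and was 2.71-fold lower (2.49 to 2.94). If the 2 sequences are close, the counting could have split reads between them, and the sources used here do not say how reads with several matches were treated.

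On the 451-residue protein all 6 members overlap at 1 stretch, so none of them continues another. Contig18041, Contig16536 and Contig36035 were lower in FE, at 19.7, 5.17 and 4.44 RPKM in FE and 41.3, 16.6 and 16.1 RPKM in PE. Contig15136 was neither, with 5.79 RPKM in FE and 4.25 RPKM in PE, and the other members, Contig58159 and Contig71504, were under 1 RPKM. The 5 members that match a 484-residue protein were all neither, with 8.13 RPKM in FE and 5.37 RPKM in PE in sum. Over the whole family the 98 members match 53 proteins. Adding up the largest number of overlapping alignments on each protein gives 87. That sum is no lower limit for the family, since pieces of 1 transcript could match different proteins, some of them partial. Whether the members are genes, alleles, splice forms or repeated assemblies cannot be told apart.

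**Figure D4:**
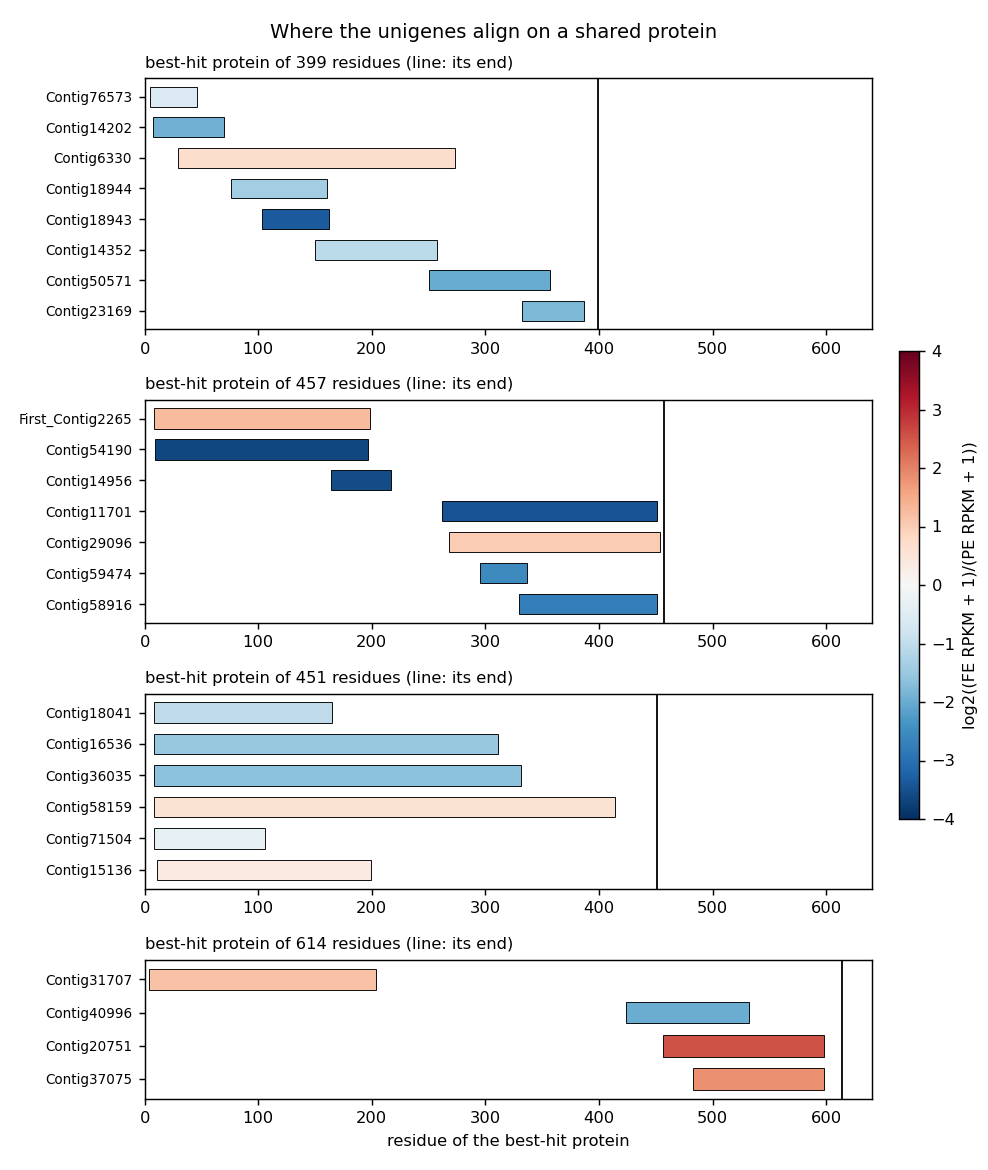
Aligned stretch of each member (bars, residue number on the x axis) on 4 best-hit proteins, of 399, 457, 451 and 614 residues, coloured by the log2 FE over PE ratio from blue (lower in FE) to red (higher in FE). Bars above one another cover the same residues, and on the 457-residue protein blue and red bars do so.

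Members higher in FE were fewer and mostly scarce. Contig26864, described as similar to monocarboxylate transporter 14, whose substrate is not settled, had 20.8 RPKM in FE (385 reads) and 2.22 RPKM in PE (50 reads), 9.37-fold higher in FE (6.96 to 12.8). A second unigene with that best hit, Contig27646, had 15.9 RPKM in FE and 9.94 RPKM in PE and was neither. Contig22028 and Contig40534, which share a 776-residue best hit, were both higher. Contig22028 had 14.3 RPKM in FE (1033 reads) and 3.15 RPKM in PE (276 reads), 4.55-fold higher in FE (3.98 to 5.22). Contig40534 had 4.49 RPKM in FE (313 reads) and 0.319 RPKM in PE (27 reads), 14.1-fold higher in FE (9.51 to 21.7).

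On the 614-residue protein, 3 of 4 members were higher in FE. Contig20751 was nearly missing from PE. Its 265 FE reads amount to 5.27 RPKM, set against 0.0654 RPKM from 4 PE reads, 80.6-fold higher in FE (31.1 to 298). Contig37075 had 3.68 RPKM in FE and 0.304 RPKM in PE, 12.1-fold higher in FE (7.44 to 20.9), and Contig31707 had 1.51 RPKM in FE and 0.106 RPKM in PE, a call that is lost with a TMM factor (log2 ratio 0.96). The remaining member, Contig40996, had 4.69 RPKM in FE and 21.4 RPKM in PE, 4.56-fold lower in FE (3.67 to 5.72), over residues 424 to 531 that Contig20751 (456 to 597) partly shares. Contig24016 (14.01 RPKM in FE, 2.65 RPKM in PE) and Contig11736 (13.4 RPKM in FE, 4.24 RPKM in PE) were 5.29-fold (4.35 to 6.47) and 3.17-fold (2.91 to 3.46) higher in FE. Contig26345, which covers 99.6% of a 492-residue protein, had 2.76 RPKM in FE and 0.397 RPKM in PE, 6.95-fold higher (5.12 to 9.62).

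Members with a close best hit were found on both sides. Among the 8 members with over 70% identity, 3 were lower in FE, 1 was higher, 3 were neither and 1 was under 1 RPKM. For Contig35880 and First_Contig1639, both neither and matched through UniProt alone, that identity covers just 32 and 20 residues. Contig30202 (74.9% identity) had 2.76 RPKM in FE and 15.1 RPKM in PE, 5.47-fold lower (4.78 to 6.28), and shares its 631-residue best hit with Contig24016, which was higher. Contig34036 (76.5%), which covers 99.6% of its 483-residue protein, had 0.294 RPKM in FE (24 reads) and 3.34 RPKM in PE (332 reads), 11.4-fold lower (7.51 to 18.0). Contig11736, at 80.5%, was higher in FE, as given above. The median identity was 47.4% in the members lower in FE and 42.2% in those higher, and the median length was 793 and 1316 nucleotides.

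The sodium-coupled type was set against the rest by description. Of 98 members 4 were described as sodium-coupled, and for the other 94 no description states how they are driven. KOG groups, which the choice did not use, split the members in the same way. All 4 sodium-coupled members had their best KOG hit in KOG2349, sodium symporters of iodide, myo-inositol and vitamins, and 80 of the other 94 had theirs in KOG2504, monocarboxylate transporters, while 14 had no KOG. The GO term transmembrane transport was attached to 88 of the 98.

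Of the 4 sodium-coupled unigenes 1 was higher in FE by the rule and 0 were lower, and the second count is 1 under other scalings. Contig690, described as similar to sodium-coupled monocarboxylate transporter 2, had 41.5 RPKM in FE (1230 reads) and 3.16 RPKM in PE (114 reads), 13.1-fold higher in FE (10.8 to 16.0), the highest log2 ratio of any member. It is a 716-nucleotide fragment with 28.8% identity to its hit, and UniProt calls its hit a sodium/solute symporter, so its substrate is not fixed by the name. Contig24911, with the same best hit, had 3.37 RPKM in FE (163 reads) and 3.78 RPKM in PE (222 reads), a ratio whose counting interval includes 1 (0.728 to 1.10). Contig26090, also with that hit, had 2.65 RPKM in FE and 1.03 RPKM in PE, 2.56-fold higher in FE (1.71 to 3.90). Its log2 ratio of 0.84 was short of the size for a call. With a pseudocount of 0.1 RPKM Contig26090 was called higher (1.28). Contig68446, similar to sodium-coupled monocarboxylate transporter 1, the best matched of the 4 at 64.1% identity, had 0.493 RPKM in FE (33 reads) and 1.89 RPKM in PE (154 reads), 3.84-fold lower in FE (2.62 to 5.77) at a log2 ratio of -0.95. That is short of the size for a call, and Contig68446 was called lower with a TMM factor (-1.07), after centring (-1.07) and with a pseudocount of 0.1 RPKM (-1.75).

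Summed, the sodium-coupled members had 48.0 RPKM in FE and 9.86 RPKM in PE, and the other 94 had 622 RPKM in FE and 1782 RPKM in PE. The median log2 ratio was 0.36 for the 4 sodium-coupled members, the same as for all unigenes, and -0.89 for the 80 others that passed the filter, 11 of them higher and 39 lower. The sum of the sodium-coupled members rests on Contig690, without which it was 6.52 RPKM in FE and 6.71 RPKM in PE. With 4 unigenes and 1 library per state the difference between the types was not tested.

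Few other members carry a type number. Contig3587, similar to monocarboxylate transporter 9 and at 5969 nucleotides the longest member, had 7.30 RPKM in FE (1805 reads) and 27.8 RPKM in PE (8375 reads), 3.81-fold lower in FE (3.62 to 4.02). Contig9433, also described as similar to transporter 9, had 2.92 RPKM in FE and 2.45 RPKM in PE and was neither. UniProt names the hit of Contig9433 putative monocarboxylate transporter 3. The 3 unigenes similar to monocarboxylate transporter 10, in mammals a carrier of aromatic amino acids, were all under 1 RPKM, with 2.22 RPKM in FE and 0.764 RPKM in PE in sum.

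Some low members rest on few reads. Contig77079 had 3 reads in FE and 181 in PE, a ratio of 49.6 lower in FE with a counting interval of 16.7 to 243. Contig42902 and Contig52840 had 20 and 13 reads in FE and 0 in PE, and both lie below the filter. The members nearest the size rule were Contig29096, Contig31707 and First_Contig2265 just inside it (log2 ratios 1.01, 1.18 and 1.26) and Contig36209, Contig26090 and Contig69659 just outside it (0.91, 0.84 and 0.80). On the other side Contig18041, Contig35034 and Contig33888 lay just inside (-1.03, -1.05 and -1.07), and Contig68446, Contig63157 and Contig49300 just outside (-0.95, -0.91 and -0.87).

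The authors' deposited table gives a false discovery rate per unigene, from a test that no label or header names. A rate under 0.05 was given to 21 of the 98 members in the authors' deposited table, 18 of them higher in PE and 3 higher in FE, where 2.22% and 5.75% of all 65535 unigenes had such a rate and were higher in PE and in FE. The 3 higher in FE in the authors' deposited table were Contig690 (7.58e-08), Contig26864 (0.00231) and Contig24016 (0.0461). The lowest rates in the authors' deposited table belonged to Contig17865 (1.64e-47) and Contig10833 (3.97e-35). All 21 had been called by the size rule in the same direction, which is no independent check, since both use the same 2 libraries. Another 30 members called by size did not reach that rate in the authors' deposited table. With 1 library per state the rates hold no variation between ticks.

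Genes of the pathways that make and use these acids were counted in 11 lists. Of 41 unigenes at 1 RPKM or more, 7 were higher in FE, 4 lower and 30 neither, beside 25.7% higher and 11.1% lower of all unigenes. With a TMM factor 3 were higher and 5 lower, beside 18.0% and 15.6% of all unigenes. The patterns for the partner glycoproteins (basigin, embigin, neuroplastin) and for the mitochondrial pyruvate carrier matched 0 unigenes. The lactate dehydrogenase pattern matched 1 unigene, a D-lactate dehydrogenase (Contig899), with 34.6 RPKM in FE and 19.7 RPKM in PE, called neither. Pyruvate kinase, which makes pyruvate in glycolysis, had Contig2290 at 40.7 RPKM in FE and 33.1 RPKM in PE, and Contig4651 at 18.7 and 5.09 RPKM in FE and PE, 3.67-fold higher in FE (3.32 to 4.06). Of the 7 unigenes of the pyruvate dehydrogenase complex, which turns pyruvate into acetyl-CoA, 6 reached 1 RPKM and all of these were neither. Their most abundant unigene, Contig7785, had 37.6 RPKM in FE and 39.2 RPKM in PE.

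Phosphoenolpyruvate carboxykinase, a control point of glucose synthesis, was the most abundant of its list. Contig388 had 313 RPKM in FE and 123 RPKM in PE, 2.54-fold higher in FE (2.49 to 2.60), and in its list of 6 with pyruvate carboxylase 2 were higher and 0 lower. The list for ketone body enzymes had 1 of 7 unigenes higher, hydroxymethylglutaryl-CoA lyase (Contig37101, 7.07 RPKM in FE and 2.08 RPKM in PE), and 1 lower. The lower one, a cytosolic hydroxymethylglutaryl-CoA synthase (Contig20494), is of the mevalonate pathway and was matched by its name. Contig20494 had 7.38 RPKM in FE and 21.9 RPKM in PE, 2.97-fold lower (2.77 to 3.18). The most abundant unigene of the list, D-beta-hydroxybutyrate dehydrogenase (Contig7873), had 94.7 RPKM in FE and 59.4 RPKM in PE and was neither. Of the 4 short-chain fatty acid and acetate enzymes 1 was higher, 1 lower and 2 neither. Propionyl-CoA carboxylase had its beta chain (Contig463), the most abundant of the list, at 42.5 RPKM in FE and 24.0 RPKM in PE, neither. Its alpha chain (Contig6810) had 23.3 RPKM in FE and 11.0 RPKM in PE, 2.11-fold higher in FE (1.99 to 2.25). Acetyl-CoA synthetase (Contig8944), which activates acetate, had 1.29 RPKM in FE and 9.21 RPKM in PE, 7.14-fold lower (6.06 to 8.46).

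Proteins that set the proton and sodium gradients went different ways. The sodium pump, which maintains the sodium gradient, was led by an alpha subunit (Contig3845) with 96.2 RPKM in FE (12480 reads) and 409 RPKM in PE (64576 reads), 4.25-fold lower in FE (4.17 to 4.34). Of the other 6 pump unigenes that passed the filter 1 was higher and 5 were neither. Of 3 sodium/hydrogen exchangers 1 was higher in FE and 2 were neither. The higher one (Contig11175) had 14.2 RPKM in FE and 3.79 RPKM in PE, 3.75-fold higher in FE (3.49 to 4.03). Contig32058, of near the same mean level, had 10.4 RPKM in FE and 7.94 RPKM in PE and was neither. Carbonic anhydrases, which interconvert carbon dioxide and bicarbonate, had 4 of 5 called neither, led by Contig5599 with 91.3 RPKM in FE and 135 RPKM in PE. The remaining one, Contig6750, is a 314-nucleotide fragment with 1.38 RPKM in FE (18 reads) and 140 RPKM in PE (2221 reads), 101-fold lower in FE (64.0 to 171).

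Other carriers of small molecules, set beside the family for scale, had smaller shares lower in FE. Sugar transporters had 5 of 20 higher and 5 lower (25% each), amino acid transporters 6 of 25 higher and 3 lower (12%), and carriers of organic cations and anions 18 of 54 higher and 10 lower (18.5%), against 39 of 84 lower (46.4%) for monocarboxylate transporters. Of all unigenes 25.7% were higher and 11.1% lower. The median log2 ratios of the other carriers were 0.24, 0.14 and 0.49, and that of all unigenes was 0.36. These carrier lists were chosen after their values were seen. These differences between families were not tested, since 1 library per state gives no spread to test against.

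**Figure D5:**
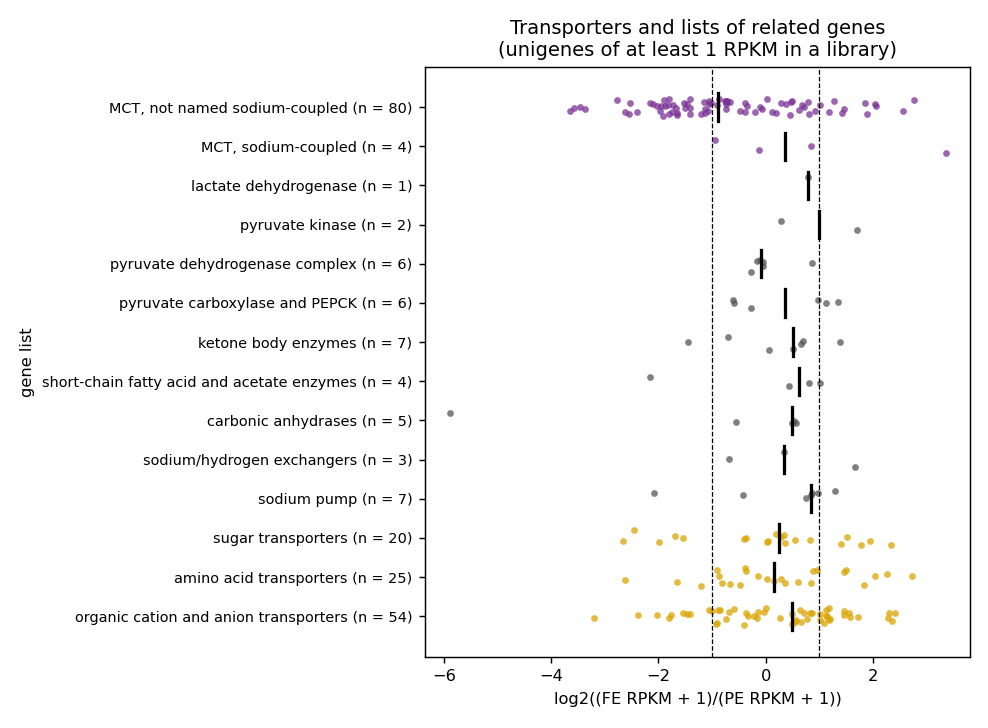
The log2 FE over PE ratio (x axis) of each unigene of at least 1 RPKM in a library, for the monocarboxylate transporters (MCT, purple), the pathway lists (grey) and other carriers (yellow), with the median of each list as a black bar and dashed lines at the size for a call. The 80 members not named sodium-coupled have a median of -0.89, and the other lists have medians between -0.08 and 0.99.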

How the data were processed

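Per the labels' protocols, RNA was taken with Trizol and TruSeq RNA libraries were made from it. The submitters' processing notes name CASAVA 1.8. The sources used here do not give the assembler, aligner, counter or annotation search. The authors deposited raw read counts per unigene and RPKM values beside them, per the file headers. The listed counts summed to 35944321 in FE and 43831353 in PE, and counts, RPKM and lengths imply library totals of 41432770 and 50397332 reads, which set the counting intervals. The best protein hits, with percent identity and alignment score, were deposited by the authors. A second table deposited by the authors gave the ratio (fold) of PE over FE with its p-value and false discovery rate, per the file headers.

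Members, lists and named unigenes were chosen with earlier results of these data known. Named were the 12 members highest in mean level, the 8 highest and 8 lowest ratios, all sodium-coupled members, the 3 nearest the size rule on each side, and the top and extreme unigenes of each pathway list. Other names, the other carriers and the tissue lists were chosen after their values were seen. Another 24 unigenes with such an Nr description lie outside the expression table and were not analysed here. Ratios used a pseudocount of 1 RPKM. Intervals cover counting error only. The code of the size rule was run on simulated reads with counting error only, which says nothing on variation between ticks. TMM came from edgeR 4.0.16, other steps from Python 3.11.15 with scipy 1.17.1.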

Additional observations from a re-analysis of the deposited data

How the results depend on the processing

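No paired analysis was possible because each state has 1 library. No called member changed direction under another pseudocount, filter, scaling or size, and the calls lower in FE outnumbered those higher in FE under every setting run. As reported, 12 were higher and 39 lower. Those counts were 5 and 25 with a pseudocount of 5 RPKM, 4 and 23 with 1 unigene per protein, 5 and 12 with a size of 4-fold, and 6 and 32 with a filter at 5 RPKM. Fewer members enter under the last filter (50) and with 1 per protein (45). Of all unigenes, 10.5% were higher and 4.57% lower with the pseudocount of 5 RPKM, and 6.66% and 3.23% at 4-fold. With the filter at 5 RPKM 32.3% of all unigenes were higher and 13.5% lower. As reported, and beside 1 member per protein, these shares were 25.7% and 11.1%. The median log2 ratio was -0.38 with a pseudocount of 5 RPKM and -1.41 with the filter at 5 RPKM (-1.42 for members not named sodium-coupled). The medians of all unigenes were 0.17 with that pseudocount and 0.44 with that filter. The summed level, FE over PE, was 0.374, and became 0.285 with a TMM factor, 0.288 after centring on well expressed unigenes, 0.337 with 1 unigene per protein, 0.346 where both descriptions had to match, and, added after seeing the data, 0.352 without Contig690 and 0.486 without the 2 most abundant members. Higher calls in the pathway lists numbered 7, and 13 with a pseudocount of 0.1 RPKM, 3 with one of 5 RPKM, 3 with a TMM factor, 4 after centring and 0 at 4-fold. Beside these, 34.7% of all unigenes were higher with a pseudocount of 0.1 RPKM and 10.5% with one of 5 RPKM. The share was 18.0% with a TMM factor, 18.3% after centring and 6.66% at 4-fold. No sodium-coupled member remained where both descriptions had to match. Shallow members, such as those with 3 to 30 reads in a library, have wide intervals.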

Other observations

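A few unigenes outside the rule carry another sign of the family. Of 82 unigenes with KOG2504 as best group, 80 were members. The other 2 are described as hypothetical proteins. Contig46687 had 2.40 RPKM in FE and 3.84 RPKM in PE and was neither, and Contig40244 had 0.149 RPKM in FE (11 reads) and 2.18 RPKM in PE (195 reads), 14.6-fold lower in FE (95% counting interval 7.97 to 29.7). UniProt names 3 unigenes outside the rule as monocarboxylate transporters, Contig40244 among them. Contig48605 had 8.30 RPKM in FE and 15.3 RPKM in PE, and Contig25332 had 8.56 RPKM in FE and 12.9 RPKM in PE, both neither. With these 3 added, 12 were higher and 40 lower of 87.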
